A study of Arabidopsis thaliana with 12 samples.

Results

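The genes described here are 9 genes of photosynthetic carbon fixation: SBPASE, CP12-1, CP12-2, PRK, GAPA, GAPB and RCA of the Calvin cycle, and the carbonic anhydrase genes ACA1 and CA1. They were chosen by gene identifier, with earlier results on the same libraries known, from the 20017 genes of the expression table. Of the 9 genes, 8 were measured there, and CA1 (AT3G01500) was not analysed here. Because the genes were picked with such measurements in view, their values are given as a description and no test was made on them.

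RNA was sequenced from roots of Arabidopsis thaliana seedlings that had grown for 7 days. Wild-type plants (Col-0) and crr mutants were kept on 1 mM phosphate (+Pi) or on medium to which none was added (-Pi). There were thus 4 groups, with 3 libraries in each. According to the methods of the study, crr was the line crr-1, which carries a T-DNA in the first intron of CRR, so the mutant stands for 1 insertion line, and each library came from the roots of many pooled seedlings. CRR belongs to the CYBDOM proteins, which join a DOMON to a cytochrome b561 domain, and by the study's account it reduces ferric iron at the plasma membrane. The comparisons ask how the transcript levels of these genes differ with Pi supply in each genotype, between the genotypes on each medium, and whether the Pi response differs between the genotypes.

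The Calvin cycle uses ATP and NADPH from the light reactions to build sugar phosphates from CO2 in the chloroplast stroma. Rubisco fixes CO2, glyceraldehyde 3-phosphate dehydrogenase (GAPDH) carries out the reducing step, and sedoheptulose-1,7-bisphosphatase and phosphoribulokinase belong to the part of the cycle that regenerates the CO2 acceptor. The small protein CP12 binds GAPDH and phosphoribulokinase into an inactive complex in the dark. Carbonic anhydrases interconvert CO2 and bicarbonate. Most of these genes are known for high expression in green leaves, and roots express them at low levels.

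Each value is the authors' mean log2 CPM of a group, that is, read counts scaled to library size on a log2 scale, averaged over the group. No value of a single library was used here, so the spread between the 3 libraries is unknown. No SD, standard error or p-value is given for that reason, and whether a difference exceeds the spread between replicates cannot be said. A difference between groups is a difference of 2 such means, in log2 units, and 2-fold (1 log2 unit) served as the limit for counting genes. As a scale for these differences, each was set beside those of all genes at a like level, defined as a mean of the compared groups within 0.5 log2 units. The range that held the central 95% of those genes is called the like-level range.

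The genotype label was checked first. CRR (AT3G25290) was at 5.99 log2 CPM in +Pi and 5.64 in -Pi roots of Col-0 and at -0.38 and -0.11 in crr, which is 82.5-fold and 53.9-fold lower in crr. All 10 root markers, among them the endodermal gene CASP1 and the root hair gene COBL9, were measured in every group, between 0.64 and 6.94 log2 CPM. The 9 shoot organ markers, among them the leaf polarity gene FIL and the stomatal gene SPCH, were not analysed here.

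The stretches of 250 bases before the annotated starts of 4 genes are printed because these genes represent the patterns described next. SBPASE and RCA were lower under -Pi in both genotypes, whereas PRK and ACA1 were higher under -Pi. The sequences come from the RefSeq assembly TAIR10.1, run 5′ to 3′ on the strand of the gene and end at the base before its start. Capitals mark motifs.
SBPASE promoter, chr3:20709044-20709293, plus strand: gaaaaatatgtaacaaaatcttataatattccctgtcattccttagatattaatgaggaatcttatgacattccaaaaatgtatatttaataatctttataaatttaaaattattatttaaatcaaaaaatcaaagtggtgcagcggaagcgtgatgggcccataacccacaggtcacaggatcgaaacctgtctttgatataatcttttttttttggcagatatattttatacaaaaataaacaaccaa
RCA promoter, chr2:16573693-16573942, minus strand: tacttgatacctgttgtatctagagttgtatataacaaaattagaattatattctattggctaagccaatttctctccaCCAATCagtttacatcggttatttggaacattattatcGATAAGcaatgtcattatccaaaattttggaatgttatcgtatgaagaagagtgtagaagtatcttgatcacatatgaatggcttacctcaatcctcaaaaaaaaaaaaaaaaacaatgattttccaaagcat
PRK promoter, chr1:11531949-11532198, plus strand: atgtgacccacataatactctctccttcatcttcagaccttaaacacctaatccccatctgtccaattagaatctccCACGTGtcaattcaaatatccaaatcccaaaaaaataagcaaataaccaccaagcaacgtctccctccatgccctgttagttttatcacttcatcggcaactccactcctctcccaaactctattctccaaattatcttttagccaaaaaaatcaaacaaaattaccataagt
ACA1 promoter, chr3:19542287-19542536, minus strand: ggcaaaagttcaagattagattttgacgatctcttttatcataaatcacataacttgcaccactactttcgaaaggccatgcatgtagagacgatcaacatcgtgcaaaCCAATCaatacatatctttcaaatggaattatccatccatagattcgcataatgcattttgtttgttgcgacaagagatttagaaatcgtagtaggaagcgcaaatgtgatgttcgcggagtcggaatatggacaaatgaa

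Both strands of the promoters of 7 of the 8 genes were searched for 4 motifs: the G-box CACGTG, the I-box core GATAAG, the motif CCAATC named for the chloroplast regulators GLK1 and GLK2, and P1BS, GNATATNC, the element bound by the Pi starvation regulator PHR1. No 2 matches overlapped. The RCA promoter held CCAATC, starting 171 bases before the gene, and GATAAG, starting 133 bases before it. The ACA1 promoter held CCAATC 141 bases before the gene, and the PRK promoter held the G-box 173 bases before it. CP12-2, whose promoter is not printed, had GATAAG 69 bases before its start. The promoters of SBPASE, GAPA and GAPB held none of the 4 motifs, and P1BS was in none of the 7. Of 27443 promoters of the same length, 6.5% held the G-box, 12.3% the I-box core, 10.2% CCAATC and 5.5% P1BS. RCA, SBPASE, GAPA and GAPB, all lower under -Pi, did not share a motif from this set within these windows. By the annotation, a tRNA gene (AT3G55795) covers 72 bases of the SBPASE window, AT3G26640 covers the whole GAPA window, AT1G42960 covers 196 bases of the GAPB window, AT3G62400 covers 128 bases of the CP12-2 window, and the non-coding gene AT3G08280 covers 12 bases of the ACA1 window.

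Levels of different genes were compared per length, as log2 CPM per kb of annotated exons. In Col-0 under +Pi, CP12-1 and RCA were at 3.85 and 3.83 log2 CPM per kb, followed by GAPA at 2.78, GAPB at 2.504 and SBPASE at 1.55. CP12-2 (-0.25), PRK (-1.70) and ACA1 (-2.21) came last on the same scale. In Col-0 under -Pi, ACA1 stood at 1.09 log2 CPM per kb, above SBPASE at 0.53, PRK at 0.01 and CP12-2 at -0.24. In crr under -Pi, RCA (2.38), CP12-1 (1.67), GAPA (1.32) and GAPB (1.19) again led, but CP12-2 (-0.05), ACA1 (-0.30) and PRK (-0.44) stood above SBPASE, which was last at -0.87 log2 CPM per kb. Which neighbours in these orders differ beyond the spread between libraries is not known. Against all genes of the table the levels were low to middling. RCA in crr under +Pi was the highest value of the 8 genes, with 66.9% of all genes at or below it, and for CP12-2 that share was at most 2.5% in every group.

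**Figure D1:**
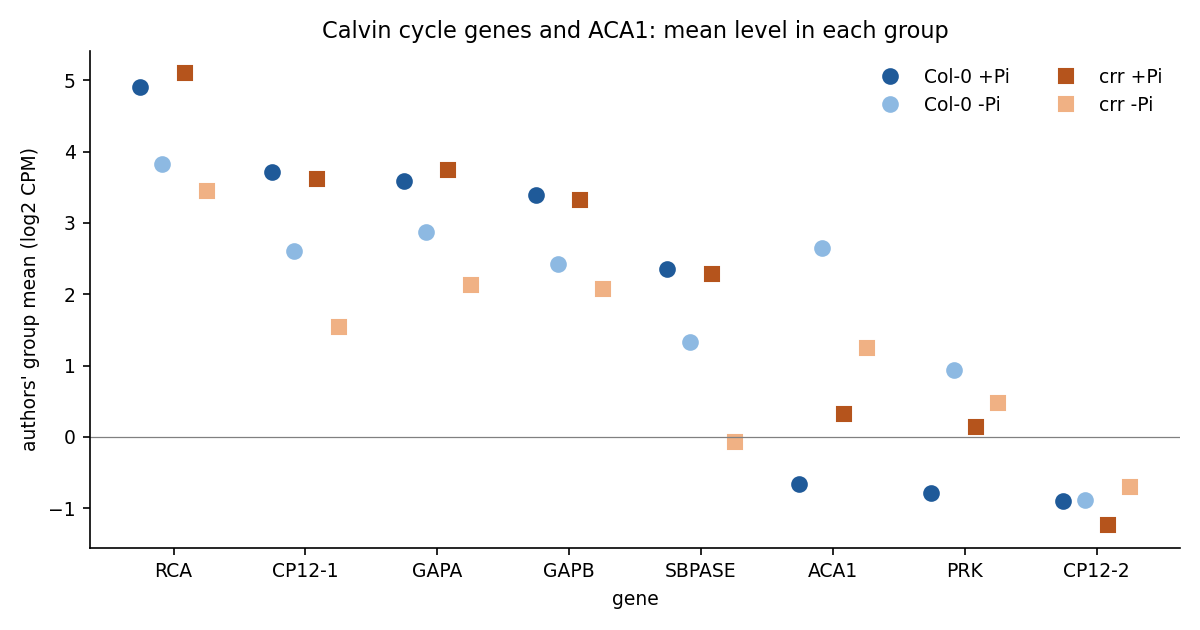
Authors' mean log2 CPM (vertical axis) of the 8 measured genes (horizontal axis) in Col-0 (circles) and crr (squares), dark under +Pi and light under -Pi, with no error bars because only group means were used. The 5 genes on the left have both light points below both dark points, and the lowest light point is that of crr. ACA1 and PRK have their highest point in Col-0 under -Pi.

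RCA (AT2G39730, chromosome 2, 16570746 to 16573692, minus strand, 7 exons) encodes Rubisco activase, which removes inhibitory sugar phosphates from Rubisco. It was at 4.91 log2 CPM in Col-0 under +Pi, 3.83 in Col-0 under -Pi, 5.10 in crr under +Pi and 3.45 in crr under -Pi. Both -Pi means were below both +Pi means. RCA was 2.11-fold lower under -Pi in Col-0 (log2 difference -1.08) and 3.13-fold lower in crr (-1.65). Both differences lay outside the like-level ranges, which were -0.75 to 0.78 and -0.85 to 0.91. Between genotypes, RCA was 0.19 higher in crr under +Pi and 0.38 lower under -Pi on the log2 scale, close to the edges of the like-level ranges of -0.21 to 0.19 and -0.44 to 0.37.

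GAPA and GAPB encode the subunits of the chloroplast GAPDH that works with NADPH. GAPA (AT3G26650, chromosome 3, 9794862 to 9797045, plus strand, 5 exons) was at 3.59 (+Pi) and 2.88 (-Pi) log2 CPM in Col-0, and at 3.75 and 2.13 in crr. The step down under -Pi was 1.64-fold in Col-0 and 3.07-fold in crr. In log2 units it lay inside the like-level range in Col-0 (-0.72, range -0.94 to 1.08) and outside it in crr (-1.62, range -1.10 to 1.34). Under -Pi GAPA was 1.68-fold lower in crr than in Col-0 (log2 difference -0.75, like-level range -0.61 to 0.52). GAPB (AT1G42970, chromosome 1, 16127353 to 16129895, plus strand, 9 exons) was at 3.39 and 2.42 log2 CPM in Col-0 and at 3.31 and 2.08 in crr. It was 1.97-fold lower under -Pi in Col-0 and 2.36-fold lower in crr, so the step down differed less between the genotypes than that of GAPA. Between the genotypes under -Pi, GAPB differed by -0.34 log2 units, inside its like-level range of -0.67 to 0.56. Per kb, GAPA exceeded GAPB by 1.21-fold in Col-0 under +Pi, 1.46-fold in Col-0 under -Pi, 1.43-fold in crr under +Pi and 1.10-fold in crr under -Pi.

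SBPASE (AT3G55800, chromosome 3, 20709294 to 20711640, plus strand, 8 exons) encodes sedoheptulose-1,7-bisphosphatase, an enzyme of the regeneration phase that is switched on by reduction through thioredoxin. It was at 2.36 (+Pi) and 1.33 (-Pi) log2 CPM in Col-0, and at 2.28 and -0.07 in crr. Under +Pi the genotypes were alike to 0.08 log2 units, and the crr mean under -Pi was the lowest of the 4. SBPASE was 2.04-fold lower under -Pi in Col-0, a log2 difference of -1.03 that lay inside the like-level range of -1.08 to 1.63. In crr it was 5.09-fold lower, a log2 difference of -2.35 with a like-level range of -1.65 to 2.53. That was the lowest Pi response among the 8 genes, and of all 20017 genes 76 had a lower one in crr. Under -Pi SBPASE was 2.63-fold lower in crr than in Col-0 (log2 difference -1.40, like-level range -1.02 to 0.88). With 1 CPM added, the Pi response in crr was -1.58 log2 units and the genotype difference under -Pi was -0.85, short of 2-fold.

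PRK (AT1G32060, chromosome 1, 11532199 to 11534639, plus strand, 5 exons) encodes phosphoribulokinase, which makes the CO2 acceptor of Rubisco. It was at -0.78 (+Pi) and 0.93 (-Pi) log2 CPM in Col-0, and at 0.13 and 0.48 in crr. PRK thus went against SBPASE, the other gene of the regeneration phase among the 8, with a 3.28-fold higher mean under -Pi in Col-0 and a 1.27-fold higher one in crr. Levels near 1 CPM scatter widely, and the like-level range of the Pi response in Col-0, -1.79 to 2.96, held the PRK value of 1.71. In crr against Col-0, PRK was 0.91 higher under +Pi and 0.45 lower under -Pi on the log2 scale, both inside the like-level ranges. As a level per kb, SBPASE was 9.53-fold above PRK in Col-0 under +Pi and 1.43-fold above it under -Pi. In crr, SBPASE was 4.80-fold above PRK under +Pi and 1.35-fold below it under -Pi.

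CP12-1 and CP12-2 encode forms of the CP12 linker protein, and the 2 genes gave different profiles. CP12-1 (AT2G47400, chromosome 2, 19446730 to 19447642, plus strand, 1 exon) was at 3.72 (+Pi) and 2.61 (-Pi) log2 CPM in Col-0, and at 3.62 and 1.54 in crr. It was 2.15-fold lower under -Pi in Col-0 and 4.24-fold lower in crr, and under -Pi it was 2.11-fold lower in crr than in Col-0. That genotype difference, -1.08 on the log2 scale, lay outside the like-level range of -0.70 to 0.58, and 8 of 1990 genes at a like level had a lower value. CP12-2 (AT3G62410, chromosome 3, 23090944 to 23091580, plus strand, 1 exon) was at -0.91 and -0.89 log2 CPM in Col-0, and at -1.24 and -0.70 in crr. None of its differences reached 2-fold or left the like-level range. Per kb, CP12-1 exceeded CP12-2 by 17.2-fold in Col-0 and 20.3-fold in crr under +Pi, against 7.88-fold and 3.29-fold under -Pi.

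ACA1 (AT3G52720, chromosome 3, 19538540 to 19542286, minus strand, 6 exons in the longest transcript) encodes an alpha carbonic anhydrase, known in Arabidopsis as a chloroplast protein that travels through the secretory pathway. Its profile stood apart from those of the Calvin cycle genes described here other than PRK. The group means of PRK had the same order as those of ACA1, with smaller differences in each comparison. ACA1 was at -0.66 (+Pi) and 2.65 (-Pi) log2 CPM in Col-0, and at 0.32 and 1.25 in crr. The mean under -Pi was 9.87-fold higher in Col-0, a log2 difference of 3.30 with a like-level range of -1.49 to 2.04, and 12 of 1297 genes at a like level had a higher one. The fold rests on a +Pi mean of 0.63 CPM. With 1 CPM added, the log2 difference in Col-0 was 2.15 and the difference of the Pi responses was -1.56. In crr the mean under -Pi was 1.90-fold higher, inside the like-level range of -1.80 to 2.42. The genotypes differed in opposite directions on the 2 media. ACA1 was 1.97-fold higher in crr under +Pi, just outside the like-level range (log2 difference 0.98, range -0.90 to 0.93). It was 2.63-fold lower in crr under -Pi, and of 1918 genes at a like level under -Pi, 2 had a lower genotype difference. The non-coding gene AT3G08280 lies on the opposite strand and overlaps 303 of the 2940 exon bases of ACA1. No source used here gives the strand setting of the authors' counting, so reads of the 2 genes in that stretch cannot be told apart. PRK, GAPA and RCA overlap a neighbour by 33, 13 and 3 exon bases.

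**Figure D2:**
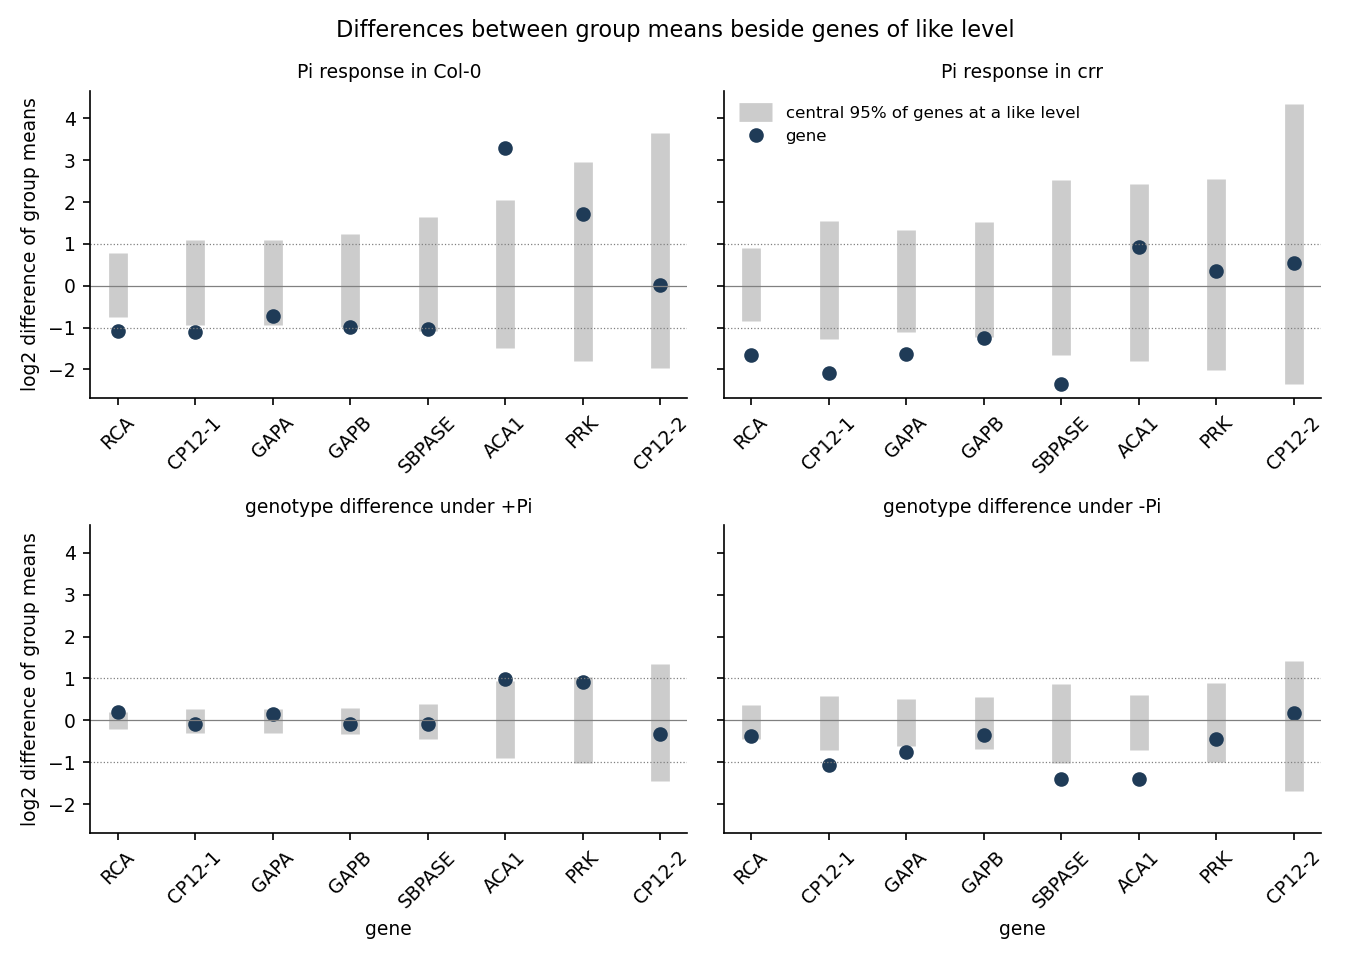
Log2 differences of group means (vertical axis) for the 8 measured genes (horizontal axis, points) in 4 comparisons, beside the central 95% of genes at a like level (grey bars). Dotted lines mark 2-fold. In crr under -Pi against +Pi the points of RCA, CP12-1, GAPA and SBPASE lie clearly below their bars, GAPB is at the lower edge of its bar, and the ACA1 point lies above its bar in Col-0.

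The first comparison, -Pi against +Pi in Col-0, gave 3 of 8 genes at least 2-fold lower under -Pi, SBPASE, CP12-1 and RCA, where 2.79% of all genes were. GAPB was just short of that limit, at -0.98 log2 units, and GAPA was at -0.72. With 1 CPM added to each mean before the log2, RCA alone passed the limit (-1.03), beside 1.29% of all genes. CP12-1 and SBPASE came to -0.99 and -0.80. PRK and ACA1 were at least 2-fold higher, where 4.19% of all genes were, and with 1 CPM added PRK no longer was (0.88 log2 units). The median over the 8 genes was -0.85 log2 units, against 0.02 over all genes. These counts describe genes picked with such values in view, and nothing is read from their excess over the share of all genes, here and in the next comparisons.

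In the second comparison, -Pi against +Pi in crr, 5 of 8 genes were at least 2-fold lower under -Pi, beside 3.62% of all genes. They were SBPASE (-2.35), CP12-1 (-2.09), RCA (-1.65), GAPA (-1.62) and GAPB (-1.24), in log2 units. None was at least 2-fold higher, a limit passed by 5.06% of all genes, and ACA1 came closest with 0.93. The median was -1.43 log2 units, against 0.01 over all genes. Summed over the 8 genes, the means taken back to a linear scale came to 72.6 CPM in Col-0 under +Pi, 44.2 under -Pi, 77.5 in crr under +Pi and 27.7 under -Pi.

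The genotypes were close under +Pi. None of the 8 genes was at least 2-fold lower or higher in crr, where 0.560% and 0.395% of all genes were, and the median was 0.04 log2 units, against -0.00 over all genes. The 5 genes with the highest levels differed by between -0.10 and 0.19 log2 units, and PRK and ACA1, both at or below 1.25 CPM in these groups, by 0.91 and 0.98. Under -Pi, 7 of 8 genes were lower in crr than in Col-0, as were 51.6% of all genes. The median was -0.60 against -0.01 over all genes. SBPASE, ACA1 and CP12-1 were at least 2-fold lower, beside 1.06% of all genes, and none was at least 2-fold higher, beside 0.629%. With 1 CPM added, ACA1 alone was at least 2-fold lower (-1.10), beside 0.12% of all genes, and CP12-1 came to -0.87.

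The difference of the Pi responses, that of crr minus that of Col-0, was below 0 for 7 of the 8 genes and for 51.8% of all genes. It reached -2.37 log2 units for ACA1, -1.37 for PRK and -1.32 for SBPASE, which made 3 of 8 genes at least 2-fold lower, beside 1.51% of all genes. With 1 CPM added, PRK and SBPASE came to -0.69 and -0.78 and were no longer among them. CP12-1 was at -0.98, GAPA at -0.90, RCA at -0.57 and GAPB at -0.26. CP12-2 alone was above 0, at 0.52, and 1.47% of all genes were at least 2-fold higher. The median was -0.94 log2 units, against -0.01 over all genes, and 22 of the 20017 genes had a lower value than ACA1. The same sign covered opposite patterns. The 5 genes that were lower under -Pi in Col-0 were lower by more in crr, whereas ACA1 and PRK were higher under -Pi in Col-0 and higher by less in crr.

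**Figure D3:**
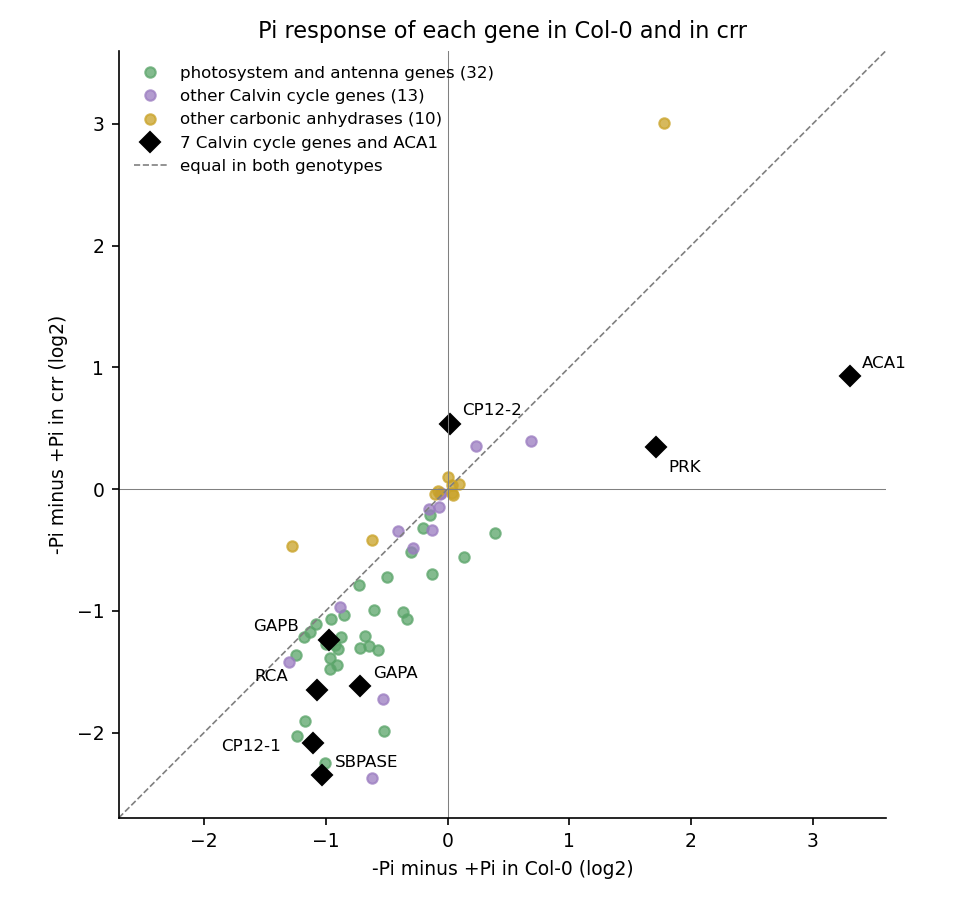
Log2 difference of -Pi minus +Pi in Col-0 (horizontal axis) and in crr (vertical axis) for the 8 measured genes (black), other Calvin cycle genes, other carbonic anhydrases and photosystem and antenna genes, 1 point per gene. On the dashed line both genotypes are equal. All black points but CP12-2 lie below the line, with ACA1 at 3.30 and 0.93 and SBPASE at -1.03 and -2.35.

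Other genes of the cycle did not all follow the same pattern. Of 17 further Calvin cycle genes 13 were measured. Of these, 1 was at least 2-fold lower under -Pi in Col-0 and 3 in crr, beside 2.79% and 3.62% of all genes. The medians were -0.15 and -0.33 log2 units. GAPA2 (AT1G12900), a second gene for the A subunit, was at 0.93 (+Pi) and 0.31 (-Pi) log2 CPM in Col-0 and at 1.05 and -1.32 in crr, with a difference of the Pi responses of -1.75. RBCS1A (AT1G67090), a gene for the small subunit of Rubisco, was at 3.58 and 3.05 in Col-0 and at 3.92 and 2.19 in crr, with a difference of -1.20. The plastid aldolase gene FBA2 (AT4G38970) was lower under -Pi to a like degree in both genotypes, by -1.30 log2 units in Col-0 and -1.42 in crr. CP12-3 (AT1G76560), the third CP12 gene, was also alike in both, at -0.89 and -0.97. RPE (AT5G61410) and RPI3 (AT3G04790), whose enzymes interconvert pentose phosphates, differed by less than 0.5 log2 units in each comparison. For CFBP1 (AT3G54050), the chloroplast fructose-1,6-bisphosphatase gene, which was named after its values were seen, the differences were 0.69 in Col-0 and 0.40 in crr.

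The cytosolic and other isoforms of the same enzymes gave no such differences. Of 10 measured glycolytic isoforms outside the Calvin cycle, none was 2-fold lower or higher in any comparison, and the medians lay between -0.01 and 0.02 log2 units. The cytosolic GAPDH gene GAPC1 (AT3G04120) was between 11.02 and 11.17 log2 CPM in the 4 groups. CYFBP (AT1G43670), the cytosolic fructose-1,6-bisphosphatase gene, had the largest differences of the list, 0.46 log2 units higher under -Pi in Col-0 and 0.48 higher in crr.

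The other carbonic anhydrase genes did not share the profile of ACA1. Of 17 further genes of the family 10 were measured. The gamma carbonic anhydrase genes, which encode subunits of mitochondrial complex I, were steady, and GAMMACA1 (AT1G19580), GAMMACA2 (AT1G47260), GAMMACA3 (AT5G66510), GAMMACAL1 (AT5G63510) and GAMMACAL2 (AT3G48680) stayed within 0.12 log2 units in every comparison. BCA4 (AT1G70410), the beta carbonic anhydrase gene with the highest level, was at 8.11 (+Pi) and 7.50 (-Pi) log2 CPM in Col-0 and at 7.89 and 7.47 in crr. BCA5 (AT4G33580) and BCA6 (AT1G58180) differed by at most 0.14 log2 units. ACA2 (AT2G28210), the other alpha carbonic anhydrase gene measured, was at 1.34 and 0.06 log2 CPM in Col-0 and at 1.25 and 0.78 in crr, so that it was lower under -Pi where ACA1 was higher. BCA3 (AT1G23730) was at -2.51 and -0.74 log2 CPM in Col-0 and at -2.86 and 0.15 in crr. It was the 1 gene of the 10 at least 2-fold higher under -Pi in both genotypes, and it overlaps a neighbour on the opposite strand by 273 exon bases.

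Transcripts of the light reactions, which mark green tissue, mostly moved in the same direction as the 5 genes. Of 32 measured photosystem and antenna genes, 8 were at least 2-fold lower under -Pi in Col-0 and 23 in crr. The shares of all genes were 2.79% and 3.62%. The medians of the list were -0.79 and -1.21 log2 units. In Col-0, 2 of the 32 were higher under -Pi. The difference of the Pi responses was below 0 for 32 of 32, where 51.8% of all genes were. It had a median of -0.42 and ran from -1.46 to -0.02, so that for some genes the genotypes hardly differed. The summed level of the list was 417.3 CPM in Col-0 under +Pi, 234.4 under -Pi, 433.5 in crr under +Pi and 193 under -Pi. None of the 32 genes was at the lowest value of the table, -5.09. PETC (AT4G03280), the Rieske subunit of the cytochrome b6f complex, was at 3.45 and 2.44 log2 CPM in Col-0 and at 3.74 and 1.49 in crr, a pattern close to that of SBPASE. PETE2 (AT1G20340, plastocyanin), PSAL (AT4G12800, photosystem I) and ATPC1 (AT4G04640, chloroplast ATP synthase) were at -2.03, -1.99 and -1.90 log2 units for -Pi against +Pi in crr. The photosystem II genes PSBW (AT2G30570) and PSBX (AT2G06520) were at -1.48 and -1.44. Root markers moved as well. The summed level of the 10 was 335.4 CPM in Col-0 under +Pi, 367.1 under -Pi, 340.1 in crr under +Pi and 425.1 under -Pi. The root hair genes RHD6 (AT1G66470) and COBL9 (AT5G49270) were higher under -Pi, by 0.83 and 0.61 log2 units in Col-0 and by 1.16 and 0.79 in crr. TIP2-3 (AT5G47450) and NRT2.1 (AT1G08090) went the other way, at -0.61 and -0.42 log2 units in Col-0 and at -0.52 and -0.55 in crr. Of the 10 markers, 6 were higher and 4 lower under -Pi in Col-0, and 8 higher and 2 lower in crr. Of all genes, 45.7% were lower in Col-0 and 48.6% in crr. The marker median was 0.28 log2 units in Col-0 and 0.07 in crr. Their difference of the Pi responses was below 0 for 5 and above 0 for 5. CASP1 (AT2G36100), not among the 6 markers with the largest differences, was 0.43 log2 units higher in crr than in Col-0 under -Pi. The part of green tissue or of these root cell types in the values of the Calvin cycle genes was not tested, and in whole roots fewer cells of a type and less RNA per cell cannot be told apart.

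Photorespiration, the pathway that recycles the product of the oxygenase reaction of Rubisco, gave a weaker split between genotypes. Of 10 measured genes 3 were at least 2-fold lower under -Pi in Col-0 and 4 in crr, beside 2.79% and 3.62% of all genes. None was 2-fold lower or higher between genotypes, where the shares of all genes were at most 1.06%. The median difference of the Pi responses was -0.11 log2 units. HPR1 (AT1G68010, hydroxypyruvate reductase) was at -1.74 and -1.99 log2 units, SGAT (AT2G13360, serine:glyoxylate aminotransferase) at -1.80 and -1.49, and GLYK (AT1G80380, glycerate kinase) at -1.13 and -1.76. GDCH (AT2G35370, glycine decarboxylase H protein) was at -0.74 and -1.28.

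Of 6 chlorophyll synthesis genes, none was 2-fold lower under -Pi in Col-0 and 2 were in crr, beside 2.79% and 3.62% of all genes. The difference of the Pi responses was below 0 for 4 of the 6 and above 0 for 2, with a median of -0.09. Those above 0 were CHLH (AT5G13630), at -0.75 log2 units in Col-0 and -0.51 in crr, and CAO (AT1G44446), at -0.66 and -0.22. The 2 genes past the limit in crr were both protochlorophyllide oxidoreductase genes. PORB (AT4G27440) was at 2.60 and 2.36 log2 CPM in Col-0 and at 2.47 and 1.20 in crr. The other was PORC (AT1G03630), named after its values were seen, at 0.39 and -0.03 log2 CPM in Col-0 and at 0.96 and -1.30 in crr. The 5 thioredoxin genes that control reduction of stromal enzymes, TRXF1, TRXF2, TRXM1, TRXM2 and NTRC, were neither 2-fold lower nor higher in any comparison, and their median Pi response was -0.27 log2 units in Col-0 and -0.19 in crr.

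Regulators of chloroplast genes gave other profiles. Of 7 measured, none was 2-fold lower in any comparison. GLK2 (AT5G44190), which activates photosynthesis genes, was at 2.69 (+Pi) and 2.25 (-Pi) log2 CPM in Col-0 and at 2.80 and 2.27 in crr, nearly the same step in both genotypes. GLK1 (AT2G20570) and GNC (AT5G56860) were below 1 log2 CPM in every group. HY5 (AT5G11260), a light signalling factor, was 0.31 log2 units lower under -Pi in Col-0 and 0.17 higher in crr, and its homologue HYH (AT3G17609) was 0.47 and 0.07 lower. PIF1 (AT2G20180) was 0.45 lower in Col-0 and 0.09 higher in crr. PIF3 (AT1G09530), a repressor of greening in the dark, was at least 2-fold higher under -Pi in both genotypes, with log2 differences of 1.91 and 1.68.

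**Figure D4:**
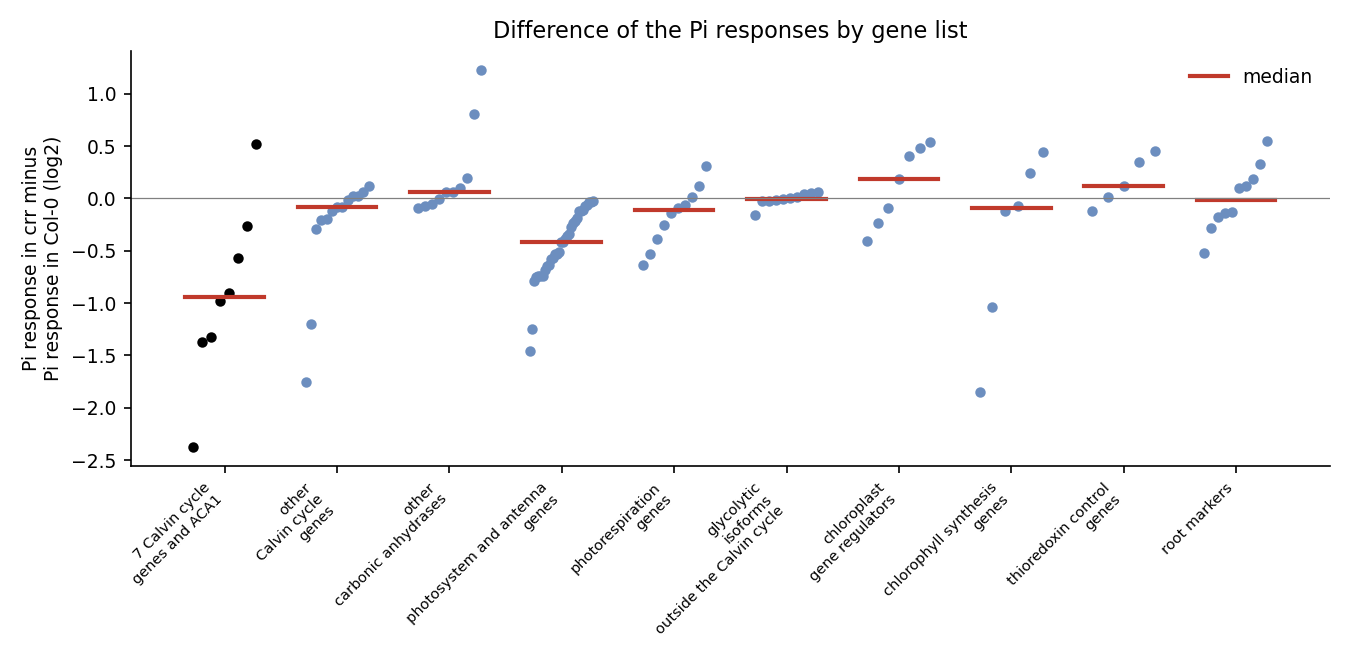
Pi response in crr minus Pi response in Col-0 (vertical axis, log2) for each measured gene of the 8 genes described here and of 9 further lists (horizontal axis), with 1 point per gene sorted by value and the median as a red line. The medians are -0.94 for the 8 genes and -0.42 for photosystem and antenna genes, and between -0.11 and 0.18 for the other lists.

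The profile of each gene was compared with those of all genes whose highest group mean reached 1 log2 CPM, as the Euclidean distance between the 4 group means after each gene was centred on its own mean. With 4 means, many genes lie near most profiles, so a short distance is a description only. The genes most like the mean profile of the 8 were AT5G59760, the urea transporter gene DUR3 (AT5G45380), MEF7 (AT5G09950), AT2G22600, AT4G22160, CHR40 (AT3G24340), CIPK19 (AT5G45810), AT5G24318, AT2G40130 and RLP26 (AT2G33050), at distances of 0.06 to 0.14 log2 units. That mean profile averages opposite responses, so the nearest genes of single members were added after the data were seen. AT3G61870 was the nearest gene to SBPASE, at 0.19, and AT1G53635 the nearest to CP12-1, at 0.13. CP12-1 was the third nearest gene to SBPASE, at 0.24, and the photosynthesis gene ATPC1 was the third nearest to CP12-1, at 0.15. GAPA2 was the fifth nearest to SBPASE, at 0.29. Nearest to GAPB were the metal tolerance protein gene MTPA2 (AT3G58810), at 0.03, and bZIP3 (AT5G15830), at 0.04. The Rubisco accumulation factor gene AT3G04550 and the photosystem I gene PSAF (AT1G31330) came next, both at 0.05. The nearest gene to GAPA was BEE2 (AT4G36540), at 0.03, and the nearest to RCA was PPD6 (AT3G56650), at 0.07. ACA1 had no close neighbour, the nearest being BIP3 (AT1G09080), which encodes a chaperone of the endoplasmic reticulum, at 0.50, and for PRK it was DTX1 (AT2G04040), at 0.21.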

How the data were processed

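RNA sequencing libraries of Arabidopsis roots, 12 in 4 groups of 3 by the sample labels, were described from 1 table. Per the submitters' processing notes and the study's methods, the authors trimmed reads with cutadapt 1.8, aligned them to TAIR10 with STAR 2.5.3a, counted with HTSeq 0.9.1 and computed log2 CPM with TMM scaling in edgeR 3.24.3. No source used here gives the strand setting or the prior count. The deposited log2 values used are group means by the authors in log2 CPM. There are 20017 genes, kept by the authors' filter on low CPM. The 5 tables of the authors' own comparisons hold fold changes, F statistics and p-values and were not used. Read depth per library was not used here, so no interval is given. RNA extraction was by a column kit per the labels and by Trizol per the methods.

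Differences of group means, counts past 2-fold, medians, like-level ranges and profile distances were computed with Python 3.11.15, numpy 2.4.6 and pandas 2.3.3, and checked on simulated data with known shifts. The promoter of 1 gene is not reported here. Gene positions, exon lengths, overlaps and promoters came from the RefSeq annotation of TAIR10.1, which had the same chromosome and start for 99.9% of 19973 genes. The members, the 10 comparison lists and the motifs were chosen with earlier results of these data known. All members were named. Of each list, up to 6 genes with the largest pairwise difference were named among genes reaching 1 log2 CPM, besides all carbonic anhydrases and regulators, the 10 genes of most like profile and CRR. Like-level ranges and nearest genes of single members were added after the data were seen. Alternatives were a 1.5-fold limit, centring on the median of all genes, 1 CPM added before the log2 and a minimum level.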

Additional observations from a re-analysis of the deposited data

How the results depend on the processing

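Counts and medians over the 8 genes were recomputed with a 1.5-fold limit, after centring on the median of all genes, with 1 CPM added before the log2, and over the 6 genes that reached 1 log2 CPM in a group. Centring left every count and moved no median by over 0.1 log2 units, and the sign of 1 single difference changed, that of CP12-2 for Pi in Col-0, from 0.02 to -0.00. With the 1.5-fold limit, 5 genes were lower under -Pi in Col-0, beside 7.18% of all genes. For the difference of the Pi responses 5 genes were lower, beside 4.26%. With 1 CPM added, which shrinks differences of low genes, 1 gene was 2-fold lower under -Pi in Col-0, 1 between genotypes under -Pi and 1 for the difference of the Pi responses. The shares of all genes were 1.29%, 0.12% and 0.125% in the same order. The medians were then -0.72 for Pi in Col-0, -1.25 for Pi in crr, -0.50 between genotypes under -Pi and -0.73 for the difference of the Pi responses. Without PRK and CP12-2, the genes below 1 log2 CPM, the medians were -1.003 and -1.63 for Pi in Col-0 and crr and -0.91 between genotypes under -Pi. The other counts stayed within 1.5 times and the other medians within 0.1 log2 units. Of the 40 differences of single genes, 27 moved by over 0.1 with 1 CPM added.

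No paired analysis was possible because the table holds 1 mean per group, and for the same reason no fit without a library was made. Replicate spread remains unknown, and read depth per library was not used here. Both limits bear most on PRK, CP12-2 and ACA1, whose means are near 1 CPM in several groups. They also bear on SBPASE, whose mean in crr under -Pi was 0.96 CPM.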
